A study of Mus musculus with 10 samples.

Results

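Transcripts of 10 transcription factor genes of keratinocyte differentiation were followed in the gingival epithelium of mice: Trp63, Klf4, Klf5, Gata3, Grhl1, Grhl2, Grhl3, Ovol1, Zfp750 and Elf3. The genes were chosen by symbol, and all 10 were found among the 55414 genes of the deposited table and passed the filter on low counts that left 14062 genes to test. The study measured polyadenylated RNA in epithelium lifted from the gum after protease treatment and divided into a palatal side, facing the palate, and a buccal side, facing the cheek. There were 5 palatal and 5 buccal libraries, with 25868777 to 35583168 counts in palatal and 29317011 to 37234192 counts in buccal libraries. The labels used here give no genotype, strain, age or treatment for either side and say nothing of whether each library is from its own animal, so the p-values reflect library-to-library spread, which may be technical. The series title names spatial variation in the gingiva as the question, and the comparison was of the palatal with the buccal side.

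In stratified epithelium, basal cells divide and their daughters move outward while they switch on the genes of the cornified or mucosal surface. The p63 protein, made from Trp63, holds the basal program and is needed for a stratified epithelium to form at all. Klf4 and Zfp750 act later: p63 switches on Zfp750, which in human keratinocytes drives Klf4 and represses progenitor genes, and mice without Klf4 fail to form the skin barrier. The grainyhead-like factors Grhl1, Grhl2 and Grhl3 control junction and barrier genes, Ovol1 stops progenitor growth, Klf5 is linked to proliferating basal cells, and Gata3 and Elf3 take part in barrier lipid and surface protein genes in skin and other epithelia.

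The known sequence before the start site is shown for the 4 factors that passed the test and have a RefSeq promoter entry, so that their differences can be set beside the DNA they start from. RefSeq entries on GRCm38.p6, an older build than the GRCm39 of the submitters' processing notes, were matched by symbol for 5 of the 10 genes, Grhl1 being the fifth with 2 entries. Each stretch holds the 250 bases before the start, 5′ to 3′ on the gene's own strand, and all 4 genes lie on the minus strand: Klf4 at chr4:55532476-55532725, Grhl3 at chr4:135573633-135573882, Elf3 at chr1:135258473-135258722 and Gata3 at chr2:9878601-9878850. Capitals mark matches on either strand to the letters CACCC, the box bound by Klf factors, which reads GGGTG on the other strand.
Klf4: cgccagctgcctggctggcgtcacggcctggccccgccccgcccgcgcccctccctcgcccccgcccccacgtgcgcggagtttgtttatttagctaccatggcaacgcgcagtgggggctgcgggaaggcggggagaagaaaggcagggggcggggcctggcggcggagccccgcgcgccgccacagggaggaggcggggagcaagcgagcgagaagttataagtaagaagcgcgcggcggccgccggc
Grhl3: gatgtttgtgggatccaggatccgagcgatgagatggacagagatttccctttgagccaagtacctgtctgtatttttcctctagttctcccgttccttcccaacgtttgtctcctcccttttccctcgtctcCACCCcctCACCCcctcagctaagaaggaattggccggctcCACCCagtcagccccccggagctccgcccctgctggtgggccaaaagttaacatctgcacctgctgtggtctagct
Elf3: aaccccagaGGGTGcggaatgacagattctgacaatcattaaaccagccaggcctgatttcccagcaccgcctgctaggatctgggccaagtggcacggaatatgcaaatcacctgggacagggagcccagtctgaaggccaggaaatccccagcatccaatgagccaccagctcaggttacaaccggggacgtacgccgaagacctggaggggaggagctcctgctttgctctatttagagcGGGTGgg
Gata3: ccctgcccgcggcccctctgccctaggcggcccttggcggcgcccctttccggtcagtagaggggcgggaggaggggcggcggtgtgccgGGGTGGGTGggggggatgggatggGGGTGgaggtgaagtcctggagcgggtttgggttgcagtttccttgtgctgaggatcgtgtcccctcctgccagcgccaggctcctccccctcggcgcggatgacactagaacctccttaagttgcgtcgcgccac
The Klf4 stretch was 74% G or C with 32 CpG pairs, the Gata3 stretch 70% with 19, the Elf3 stretch 57.2% with 8 and the Grhl3 stretch 56% with 8, against a median of 52.4% G or C over 32851 promoter entries. The CACCC letters were found 3 times in the Grhl3 stretch, 3 times in the Gata3 stretch, where a pair overlap by 1 base, and 2 times in the Elf3 stretch, and the Klf4 stretch held none. They are common letters, present in 52% of the 32851 entries. Also searched on both strands were AACCNGTT for the Grhl factors (in 1.79% of entries), AGATAA for Gata factors (9.99%), CGGAAG for Ets factors such as Elf3 (13.6%), TATAAA (12.4%) and the p53-family decamer (7.13%), and none of them was found in the 6 entries of the 5 genes. A match is a description of letters and not of binding, and the search covered these windows only.

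Of the 10 factors, 2 were higher and 4 lower in palatal epithelium, and 4 did not pass the test. Klf4 and Zfp750 rose by 0.61 ± 0.13 and 0.31 ± 0.06 on the log2 scale (SE, n = 5 per side), while Klf5, Grhl3, Elf3 and Gata3 fell. The falls were -0.50 ± 0.08 for Klf5, -0.33 ± 0.08 for Grhl3, -1.09 ± 0.20 for Elf3 and -1.25 ± 0.25 for Gata3. Trp63, Grhl1, Grhl2 and Ovol1 stayed within 0.20 log2 units and had an adjusted p above 0.05 (edgeR, quasi-likelihood, with Benjamini-Hochberg values taken over all 14062 genes). The share of factors called, 6 of 10, stands beside 38.9% of all tested genes, and by direction 2 of 10 were higher against 18.7% and 4 of 10 lower against 20.3%. The median log2 fold change was 0.07 over the 10 factors and 0.01 over all tested genes. For 5 of the 10, Klf5, Grhl3, Zfp750, Elf3 and Gata3, the libraries of the sides did not overlap, which held for 28.3% of all tested genes. At least 2-fold differences, called for 10.2% of all tested genes, were seen for Elf3 and Gata3.

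**Figure D1:**
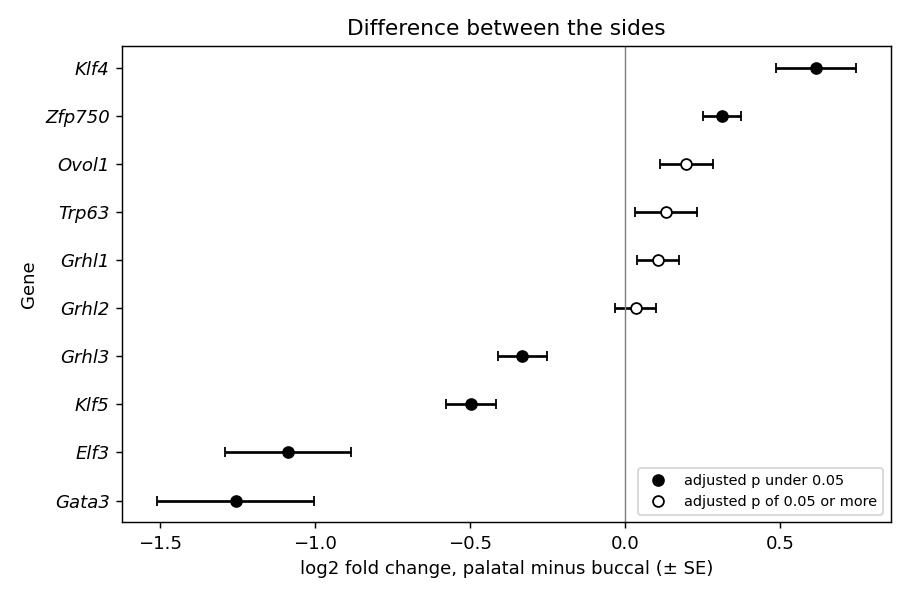
Log2 fold change of each factor (horizontal axis, palatal minus buccal; bars, SE; n = 5 per side), with filled points for an adjusted p under 0.05 in edgeR's test and open points otherwise. Klf4 at 0.61 and Zfp750 at 0.31 lie to the right of 0, and Grhl3, Klf5, Elf3 and Gata3 lie to the left, from -0.33 to -1.25.

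Trp63 encodes p63 in long forms with and without an activating end, and counts per gene cannot tell these forms apart. Its level, in counts scaled by library size (CPM), was 386, 340.5, 467, 401 and 474 CPM in palatal libraries 1 to 5. In buccal libraries 1 to 5 it was 342, 408, 435, 335 and 366 CPM. The ranges of the sides overlapped over most of their length, and the log2 fold change was 0.13 ± 0.10 (SE; edgeR adjusted p = 0.332, n = 5 per side). In a bulk sample such as these, fewer cells of a type and less RNA per cell cannot be told apart, so a level of Trp63 speaks neither for the number of basal cells nor for the output of each.

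Klf4, a zinc finger factor of the upper, differentiating layers, was the member with the largest rise. Palatal libraries 1 to 5 held 910.0, 1047, 916, 653 and 797 CPM. Buccal libraries 1 to 5 held 603, 451, 500.3, 589 and 679.6 CPM. All palatal values but that of library 4 lay above every buccal value, and palatal library 4 lay below buccal library 5 only. The means were 865 ± 148 CPM in palatal and 565 ± 89.9 CPM in buccal libraries (SD, n = 5), 1.53-fold higher by the fit (edgeR adjusted p = 0.00158).

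Zfp750, a zinc finger factor that promotes terminal differentiation, showed a smaller rise with tighter replicates. Its palatal values were 490.4, 466, 459.5, 439 and 479 CPM in libraries 1 to 5, and its buccal values 359, 376, 361, 390.3 and 394 CPM. The lowest palatal library stood above the highest buccal one. The fitted fold was 1.24 (edgeR adjusted p = 0.000905, n = 5 per side).

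Ovol1, a zinc finger factor that limits the growth of progenitors as they differentiate, had 111 to 136 CPM in palatal and 93.4 to 127 CPM in buccal libraries. The ranges overlapped, and the log2 fold change of 0.20 ± 0.09 did not pass (edgeR adjusted p = 0.0807, n = 5 per side). Among buccal libraries, number 5 had the most, 127 CPM. Without it the change was 0.27 and passed (edgeR adjusted p = 0.0134). With any other single library left out Ovol1 did not pass (edgeR adjusted p from 0.0519 to 0.179).

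Klf5, the relative of Klf4 tied to proliferating basal keratinocytes, went the other way from Klf4. Palatal libraries 1 to 5 held 462, 396, 457, 471 and 542 CPM, and buccal libraries 1 to 5 held 633, 699.8, 654, 656 and 639.8 CPM. Every palatal library was below every buccal one, and the buccal values varied little. The palatal level was 0.709 of the buccal level by the fit (edgeR adjusted p = 0.000171, n = 5 per side), the smallest adjusted p of the 10 factors.

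The grainyhead-like factors bind the same DNA letters and share much of their function in closing and sealing the epidermis, with Grhl3 the factor most needed for the mouse skin barrier. Grhl1, which supports desmosomes, had 369 to 411 CPM in palatal and 319 to 382 CPM in buccal libraries (log2 fold change 0.11 ± 0.07, SE; edgeR adjusted p = 0.233, n = 5 per side). Grhl2, which supports cell junctions, had 63.2 to 79.5 CPM in palatal and 64.6 to 71.6 CPM in buccal libraries (0.03 ± 0.07; edgeR adjusted p = 0.728), and its small difference turned sign under scaling by library totals (-0.01). Grhl3 was the family member that fell, and its values were 245, 271, 228, 240.2 and 260.5 CPM in palatal libraries 1 to 5. In buccal libraries 1 to 5 it had 286, 284, 309, 328 and 359.6 CPM. The highest palatal library lay below the lowest buccal one, and the fitted palatal level was 0.795 of the buccal level (edgeR adjusted p = 0.00367, n = 5 per side).

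Elf3, an Ets factor of epithelia that activates small proline-rich and transglutaminase genes, was lower in palatal epithelium in every library. Palatal libraries 1 to 5 held 12.1, 14.3, 14.0, 12.7 and 12.8 CPM. Buccal libraries 1 to 5 held 30.4, 45.2, 19.0, 22.9 and 22.5 CPM. The palatal values lay within a narrow band, whereas the buccal values were spread, with library 2 the highest. The fitted palatal level was 0.471 of the buccal level (edgeR adjusted p = 0.00116, n = 5 per side), and without buccal library 2 the log2 fold change was -0.85 (edgeR adjusted p = 4.87e-05). Simple epithelium and gland markers, from cells that are a known site of Elf3, were higher in palatal libraries. Of 7 tested 6 rose and 0 fell, against 18.7% higher and 20.3% lower over all tested genes. The 13 listed genes summed to 70.2 to 226 CPM in palatal and 12.0 to 44.7 CPM in buccal libraries, with Prol1 and Smr3a at 0 in every library. The part of simple epithelium and gland cells in the Elf3 difference was not tested.

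Gata3, a factor of the inner root sheath and epidermis and also of T and innate lymphoid cells, was barely present. It had 7, 12, 14, 8 and 15 counts in palatal libraries 1 to 5. In buccal libraries 1 to 5 it had 32, 36, 21, 20 and 34 counts. As levels these were 0.374 ± 0.114 CPM in palatal and 0.897 ± 0.218 CPM in buccal libraries (SD, n = 5). The sides did not overlap, and the fitted palatal level was 0.419 of the buccal level (edgeR adjusted p = 0.00112), at counts low enough that counting error is a large part of the spread.

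Most of the lymphocyte markers tested were lower in palatal libraries, as was Gata3. The list of T and innate lymphoid markers has 24 genes, of which 14 passed the count filter. In palatal libraries 13 of the 14 were lower and 1, Rora, was higher, against 20.3% lower and 18.7% higher over all tested genes. The median log2 fold change of the 14 was -1.75, against 0.01 over all tested genes, and the untested markers were mostly near 0. The whole list summed to 403 to 491 CPM in palatal and 277 to 394 CPM in buccal libraries, nearly all of it Rora, which averaged 432 ± 32.2 CPM in palatal and 308 ± 49.2 CPM in buccal libraries (SD, n = 5). Trac and Trdc were not analysed here. Without them and Rora, the remaining 21 genes summed to 16.6 to 19.3 CPM in palatal and 29.45 to 36.1 CPM in buccal libraries. With Cd5 also left out, 20 genes summed to 4.09 to 5.40 CPM in palatal and 12.99 to 19.9 CPM in buccal libraries. These lists were trimmed after their values were seen.

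The level of Gata3 was of the same order as that of single lymphocyte genes. Over the 5 libraries of a side, Gata3 had 0.848 counts per count of Cd3e in palatal and 0.817 in buccal epithelium, and Cd3e, part of the T cell receptor complex, had 66 palatal and 175 buccal counts. Against Il7r, the interleukin 7 receptor, the ratio was 0.392 in palatal and 0.331 in buccal libraries. Against Cd2 it was 2.0 in palatal and 0.808 in buccal libraries, so the markers themselves differed in how far they fell. Against Cd3g it was 1.191 in palatal and 0.708 in buccal libraries, and against Lck 0.836 and 0.704. Il1rl1 had 15 palatal and 105 buccal counts, beside 56 and 143 for Gata3. For every marker compared here the ratio was higher in palatal libraries, by little for Cd3e. By these sums Gata3 thus fell less than each marker. Cd3e was picked after its values were seen. The part of lymphocytes in the Gata3 difference was not tested.

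**Figure D2:**
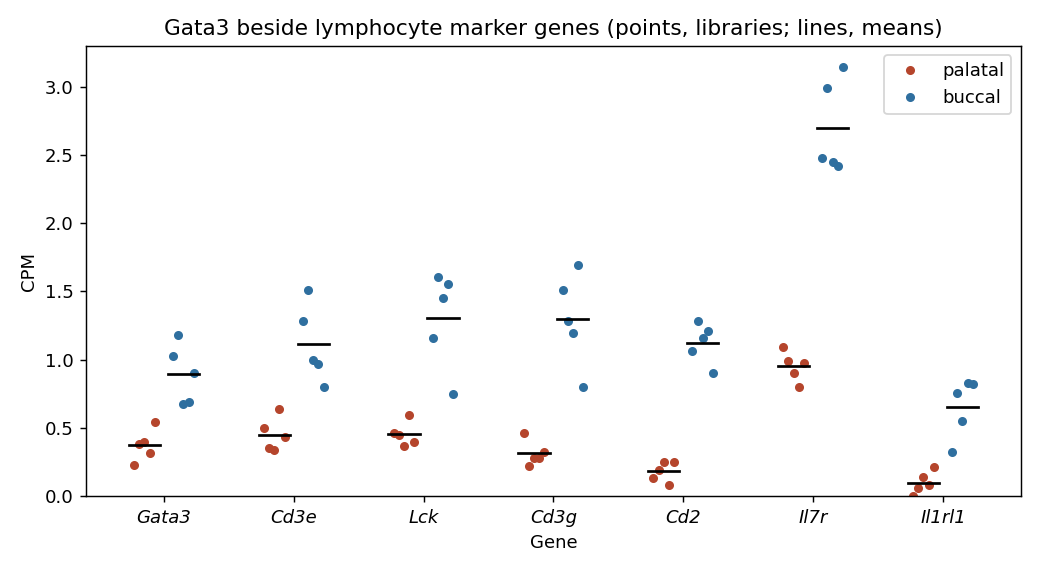
CPM of Gata3 and of 6 lymphocyte genes, 4 of them picked after their values were seen (vertical axis), with 5 palatal libraries left of 5 buccal libraries for each gene and lines at the means. Gata3 averaged 0.374 CPM in palatal and 0.897 CPM in buccal libraries, and the other genes stood lower in palatal libraries as well.

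**Figure D3:**
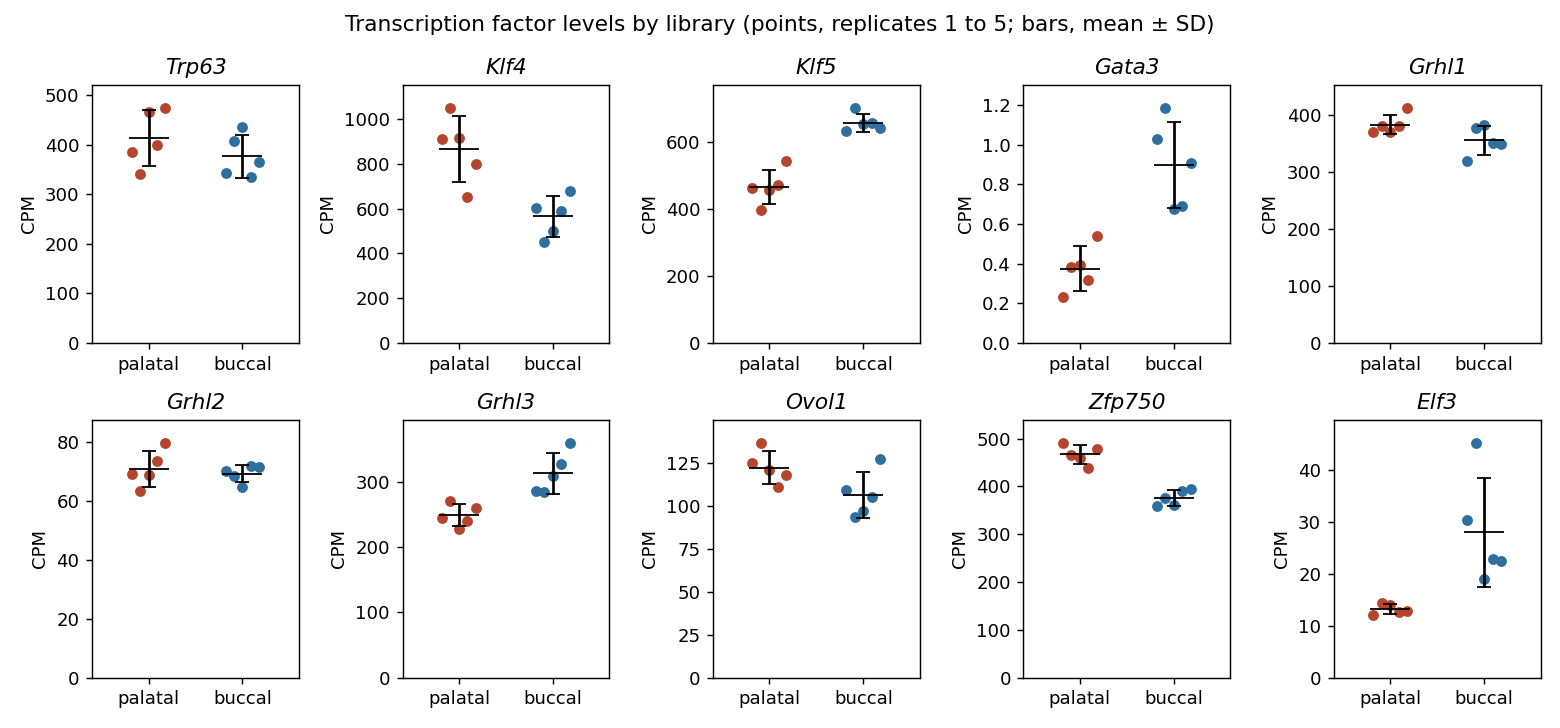
CPM of each of the 10 factors (vertical axes, each from 0) in palatal libraries 1 to 5 and buccal libraries 1 to 5, with the mean and SD. The sides are apart for Klf5, Gata3, Grhl3, Zfp750 and Elf3, and they overlap for the other 5, Klf4 by palatal library 4 alone.

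Levels of different genes were compared per kilobase of annotated exon. Klf4 was the most abundant factor on both sides, at 284 ± 48.5 CPM per kilobase in palatal and 185 ± 29.5 in buccal libraries (SD, n = 5). Zfp750 followed in palatal libraries at 144 ± 6.07 CPM per kilobase, where it stood above Klf5 at 89.5 ± 9.97 without overlap, whereas in buccal libraries Zfp750 at 116 ± 5.01 and Klf5 at 126 ± 5.03 overlapped. The order of Zfp750 and Klf5 was thus clear in palatal libraries only. Grhl3 stood at 89.3 ± 6.15 CPM per kilobase in palatal and 112 ± 11.3 in buccal libraries, next to Klf5 in palatal libraries and next to Zfp750 in buccal ones, in both cases with overlap.

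The lower places in the order were nearly the same on both sides. Grhl1 had 69.0 ± 3.05 CPM per kilobase in palatal and 64.1 ± 4.54 in buccal libraries, Trp63 had 49.3 ± 6.71 in palatal and 45.0 ± 5.15 in buccal libraries, and Ovol1 had 34.9 ± 2.73 in palatal and 30.5 ± 3.78 in buccal libraries. None of these overlapped with its neighbour in the order. Elf3 and Grhl2 exchanged places: in palatal libraries Grhl2 stood above Elf3, at 8.23 ± 0.707 and 5.94 ± 0.429 CPM per kilobase, and in buccal libraries Elf3 stood above Grhl2, at 12.6 ± 4.72 and 8.03 ± 0.334. Gata3 was last on both sides, at 0.0940 ± 0.0286 CPM per kilobase in palatal and 0.225 ± 0.0548 in buccal libraries.

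Ratios of counts within a library do not depend on how the libraries are scaled, and 8 pairs were compared. The ratio of Klf4 to Klf5 was 1.97, 2.65, 2.00, 1.39 and 1.47 in palatal libraries 1 to 5. It was 0.954, 0.645, 0.765, 0.898 and 1.06 in buccal libraries 1 to 5. Raw counts of Klf4 exceeded those of Klf5 in every palatal library, and in 1 buccal library. These counts are not divided by exon length, and per kilobase Klf4 stood above Klf5 in buccal libraries too, without overlap. The log2 ratio was 1.11 ± 0.21 higher in palatal libraries (SE, n = 5 per side; exact two-sided permutation p = 0.00794, the smallest that 5 against 5 allows; 0.0317 adjusted over the 8 pairs). With any 1 of the 10 libraries left out the sides stayed apart and the difference was 0.98 to 1.22. The smallest exact permutation p is then 0.00794, or 0.0635 over the 8 pairs unless other pairs reach a p about as small. Klf4 over Klf5 had this smallest p with any library left out. Its adjusted p of 0.0635 without palatal library 1, 3, 4 or 5 was thus set by the p of the other pairs.

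Within the grainyhead-like family, the balance of Grhl1 to Grhl3 also differed. It was 1.504, 1.40, 1.63, 1.58 and 1.58 in palatal libraries and 1.12, 1.32, 1.24, 1.07 and 0.968 in buccal libraries 1 to 5. The sides did not overlap, and the log2 difference was 0.44 ± 0.09 (SE; exact permutation p = 0.00794, adjusted 0.0317, n = 5 per side). With any 1 of the 10 libraries left out the sides stayed apart and the difference was 0.38 to 0.49. Without palatal library 1, 3, 4 or 5 its exact permutation p was 0.0159, adjusted 0.0635, close to the smallest that 4 against 5 libraries allow. The ratio of Grhl2 to Grhl3 was 0.36 ± 0.10 higher on the log2 scale (exact permutation p = 0.0238, adjusted 0.0635, n = 5 per side) and that of Grhl1 to Grhl2 0.08 ± 0.08 higher (exact permutation p = 0.373, adjusted 0.426), and neither passed. Without palatal library 2, the Grhl2 to Grhl3 difference was 0.43 and passed (exact permutation, adjusted p = 0.0317).

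Against Trp63, as a gene of the basal layer, none of the 4 ratios tested passed. Klf4 over Trp63 differed by 0.48 ± 0.24 log2 units (SE; exact permutation p = 0.103, adjusted 0.165, n = 5 per side), Zfp750 over Trp63 by 0.18 ± 0.13 (adjusted 0.243 in the exact permutation test) and Ovol1 over Trp63 by 0.07 ± 0.18 (adjusted 0.675 in the exact permutation test). Grhl3 over Trp63 differed by -0.46 ± 0.16 (exact permutation p = 0.0317, adjusted 0.0635), and without palatal library 2 by -0.56, which passed (exact permutation, adjusted p = 0.0317). Trp63 levels varied by library on both sides, and this spread enters each of the 4 ratios.

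**Figure D4:**
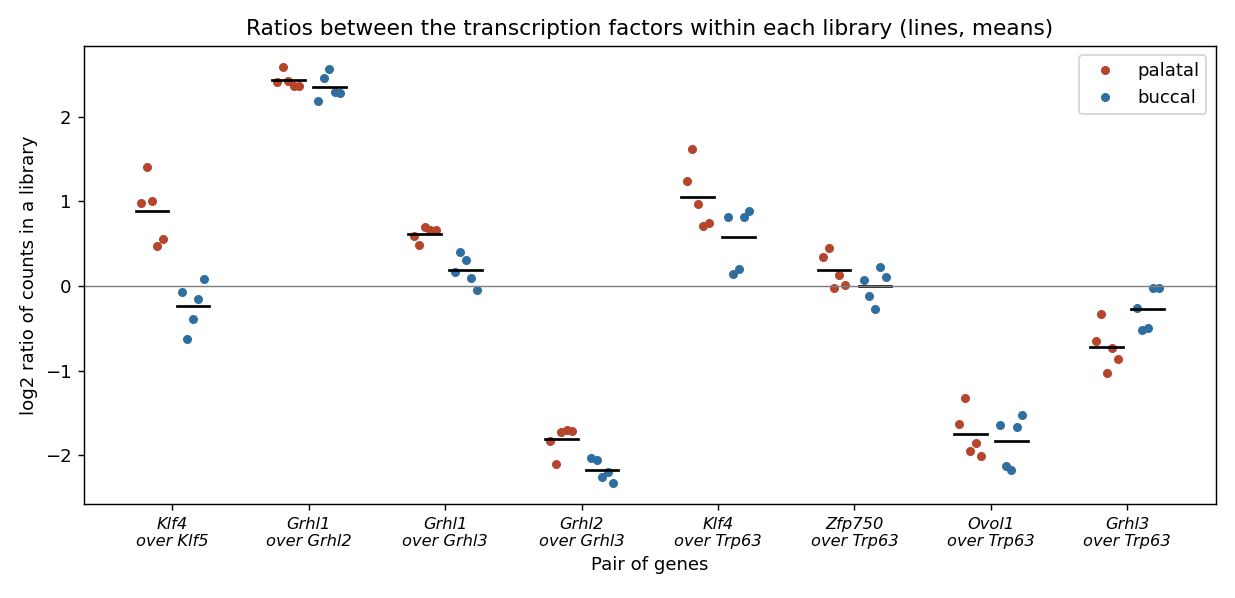
Log2 ratio of the counts of paired factors in each library (vertical axis) for the 8 pairs (horizontal axis), palatal points left of buccal points, lines at the means of 5 libraries. Palatal and buccal libraries are apart for Klf4 over Klf5 and for Grhl1 over Grhl3, whose means differed by 1.11 and 0.44 log2 units.

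Other factors of keratinocytes and the paralogs of the 10 were followed as lists. Over all tested genes 18.7% were higher and 20.3% lower, to be set beside each count of calls from here on. Of 30 other keratinocyte transcription factors, all tested, 10 were higher, 8 lower and 12 not past the test, with a median log2 fold change of -0.01. The large leucine zipper factor Maf, which acts in differentiating layers of human epidermis, stood at 548 ± 21.5 CPM in palatal and 241 ± 16.4 CPM in buccal libraries (SD, n = 5; log2 fold change 1.19 ± 0.07, edgeR adjusted p = 5.15e-09), and Tfap2c rose by 0.85 ± 0.07 (edgeR adjusted p = 1.83e-07). Msx2 rose by 3.74 ± 0.11 and Barx2 fell by 2.30 ± 0.11 log2 units.

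Of 29 listed paralogs of the 10 factors 20 were tested, and 5 were higher and 3 lower. Elf5, the Ets relative of Elf3, fell like Elf3, with 42.2 ± 2.85 CPM in palatal and 63.5 ± 7.34 CPM in buccal libraries (SD, n = 5; log2 fold change -0.59 ± 0.08, edgeR adjusted p = 4.29e-05). Ehf, the other close relative and picked for that, rose by 0.29 ± 0.10 (edgeR adjusted p = 0.0397). Among Klf genes, Klf3 rose by 0.62 ± 0.10, Klf11 by 0.36 ± 0.09 and Klf9 by 0.32 ± 0.08 (edgeR adjusted p = 0.0002, 0.00431 and 0.0048). Klf6 and Klf12, named after their values were seen, fell by 0.29 ± 0.08 and 0.43 ± 0.13 (edgeR adjusted p = 0.0108 and 0.0205). The Elf3 subfamily and the Klf family thus each held genes called in both directions. The other Gata genes listed, Gata1, Gata2, Gata4, Gata5 and Gata6, were too low to test.

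Many genes linked to p63 were higher in palatal epithelium although Trp63 itself did not pass. Of 22 such genes, all tested, 13 rose, 0 fell and 9 did not pass, against 18.7% higher and 20.3% lower over all tested genes. The median change of the 22 was 0.38 log2 units, against 0.01 over all tested genes. This list, like the others, was chosen with earlier results of these data known, so its share of calls is a description and not a test. Fras1, a basement membrane gene, stood at 49.0 ± 5.52 CPM in palatal and 6.66 ± 0.697 CPM in buccal libraries (SD, n = 5; log2 fold change 2.88 ± 0.10, edgeR adjusted p = 2.57e-11). Dlx3, a homeobox factor of differentiating cells, rose by 1.15 ± 0.12, and the growth factor binding protein gene Igfbp3 by 1.12 ± 0.11 (edgeR adjusted p = 2.06e-06 and 2.5e-06). The basal keratins Krt5 and Krt14 were picked after their values were seen. Krt5 had -0.06 ± 0.09 (edgeR adjusted p = 0.591), whereas Krt14 rose by 0.96 ± 0.13 (edgeR adjusted p = 5.2e-05).

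Genes linked to the grainyhead-like factors were mostly not past the test. Of 15 tested, 5 rose, 2 fell and 8 did not pass (median change 0.13 log2 units). The desmosomal cadherin gene Dsg1a rose by 0.98 ± 0.08, the planar polarity gene Vangl2 by 0.66 ± 0.07 and the claudin gene Cldn3 by 2.45 ± 0.36, this last at a palatal mean of 1.05 CPM, while Epcam fell by 0.75 ± 0.09 (edgeR adjusted p from 4.26e-07 for Dsg1a to 7.35e-05 for Cldn3). Tgm1, the transglutaminase gene that Grhl3 activates in mouse skin, and the cadherin gene Cdh1, a Grhl2 target, were picked for those links. Tgm1 had 443 ± 28.1 CPM in palatal and 469 ± 30.05 CPM in buccal libraries (SD, n = 5; log2 fold change -0.08 ± 0.07, edgeR adjusted p = 0.383), and Cdh1 had 0.03 ± 0.06 (edgeR adjusted p = 0.722). Of the 10 genes of the list with a promoter entry, 1 held the letters AACCNGTT.

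The differentiation genes linked to Klf4, Zfp750, Ovol1 and Elf3 went in both directions. Of 30 tested, 10 rose, 14 fell and 6 did not pass (median log2 fold change -0.21). Krt76, Crnn, Flg and Krt10 rose, by 4.24, 5.12, 2.90 and 2.19 log2 units. The other keratins of the list, named after their values were seen, fell. Krt4 had -2.07 ± 0.12, Krt1 -1.92 ± 0.17 and Krt13 -0.76 ± 0.10 (edgeR adjusted p = 7.37e-09, 1.06e-06 and 2.37e-05). Small proline-rich genes, which Elf3 activates in mouse and human epithelia, were picked after their values were seen: Sprr1a had -1.44 ± 0.08, Sprr3 -1.69 ± 0.11 and Sprr2a3 -4.18 ± 0.71 (edgeR adjusted p = 6.51e-09, 3.4e-08 and 0.00152), whereas Sprr1b had 0.16 ± 0.08 and Sprr2d -0.38 ± 0.47, both not past the test. The Sprr2 copies are nearly identical, so the division of reads among them is not certain. Tgm3, the transglutaminase that Elf3 activates in culture, fell by 0.34 ± 0.10 (edgeR adjusted p = 0.011).

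Mesenchymal genes that Ovol and grainyhead-like factors repress were followed as a list of 9. Of these 5 were tested, and 3 fell, 0 rose and 2, Snai2 and Fn1, did not pass. The repressor gene Snai2, named after its values were seen, had 36.3 ± 7.90 CPM in palatal and 35.2 ± 4.70 CPM in buccal libraries (SD, n = 5; log2 fold change 0.05 ± 0.14, edgeR adjusted p = 0.826). Vim, the intermediate filament of mesenchymal and immune cells, stood at 8.498 ± 0.707 CPM in palatal and 32.7 ± 8.53 CPM in buccal libraries (SD, n = 5; log2 fold change -1.95 ± 0.15, edgeR adjusted p = 1.74e-07). The repressors of epithelial genes Zeb1 and Zeb2 fell by 1.46 ± 0.28 and 1.37 ± 0.29, at palatal means of 0.291 and 0.395 CPM and buccal means of 0.805 and 1.03 CPM. Leukocyte and myeloid markers moved the same way as these genes, 10 of 12 tested lower and 0 higher, and summed over the 16 listed to 74.2 to 119 CPM in palatal and 213 to 362 CPM in buccal libraries, with 0 of the 16 at 0 throughout. Their part in the fall of Vim, Zeb1 and Zeb2 was not tested.

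Cofactors and regulators of the 10 factors were mostly not past the test. Of 18 tested, 1 rose and 5 fell (median log2 fold change -0.09). Ctbp2, a corepressor that binds ZNF750 in human cells, had 35.5 ± 1.37 CPM in palatal and 53.8 ± 2.63 CPM in buccal libraries (SD, n = 5; log2 fold change -0.60 ± 0.06, edgeR adjusted p = 1.52e-06). Zfpm1, a partner of Gata factors, fell by 0.84 ± 0.21, the deacetylase gene Hdac1 fell by 0.22 ± 0.06, and Wwp1, a ubiquitin ligase that acts on Klf5, rose by 0.25 ± 0.06 (edgeR adjusted p = 0.00554, 0.00756 and 0.00622).

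**Figure D5:**
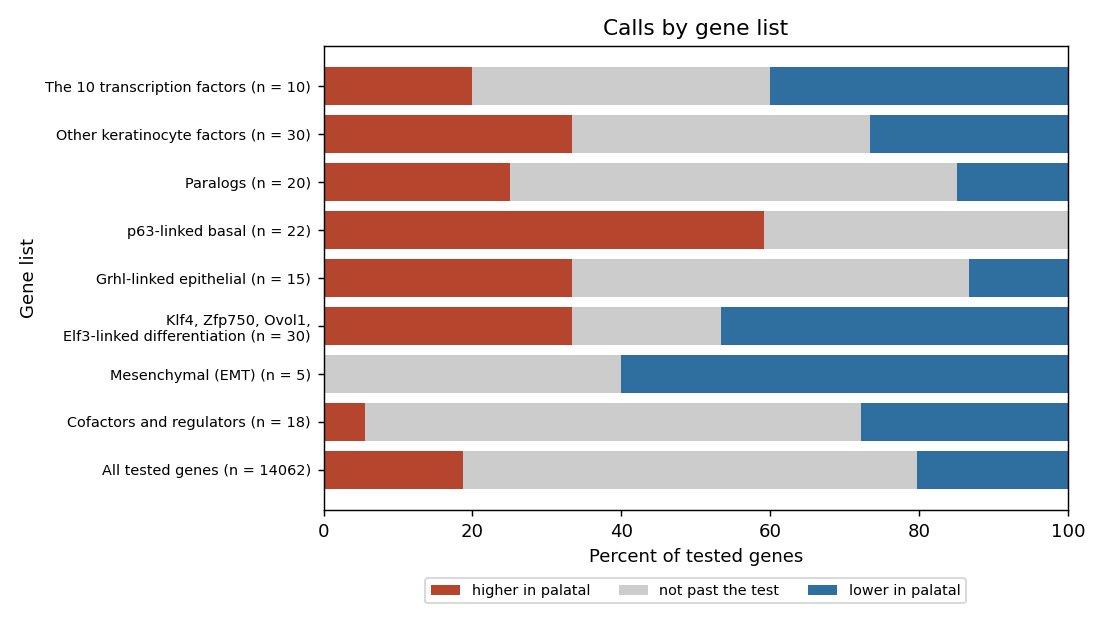
Percent of tested genes (horizontal axis) that were higher, not past edgeR's test or lower in palatal epithelium, for the 10 factors, the lists linked to them and all 14062 tested genes. The p63-linked list has 13 of 22 higher and 0 lower, and the differentiation list has 10 higher and 14 lower of 30. The lists were chosen with earlier results of these data known.

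Epithelial markers were abundant on both sides, and markers of other cells stood far below them. Of 10 epithelial identity markers all were tested, and they summed to 38670 to 43176 CPM in palatal and 28973 to 31111 CPM in buccal libraries, 5 higher, 2 lower and 3 not past the test. Endothelial and mural markers, from cells that also make Klf4, summed to 6.99 to 10.9 CPM over 12 genes in palatal and 9.02 to 12.8 CPM in buccal libraries, with 1 of 5 tested higher and 2 lower. Fibroblast markers summed to 119 to 135 CPM in palatal and 58.6 to 68.4 CPM in buccal libraries over 10 genes, most of the palatal sum being Dcn, with 2 of 7 tested higher and 1 lower. Of melanocyte, Merkel and Schwann cell markers, 5 of 11 were tested, and 3 were higher and 1 lower. This list summed to 87.8 to 102 CPM in palatal and 87.5 to 111 CPM in buccal libraries, nearly all of it Sox2, with Tyrp1 at 0 in every library.

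The genes most like the factor with the largest rise and the factor with the largest fall were found by the root mean square distance of log2 CPM, each gene centred on its own mean over the 10 libraries, among 10782 genes. For Klf4 these were Slc35e4, Adam15 and Mroh6, at distances of 0.0912, 0.0975 and 0.0984 log2 units, with log2 fold changes of 0.52, 0.54 and 0.47. For Gata3 these were Csf1r, Lrp8 and Epb41l2, at 0.174, 0.177 and 0.179 log2 units, with log2 fold changes of -1.31, -1.14 and -1.20. Csf1r is the colony stimulating factor receptor of macrophages and Langerhans cells. The distances are a description over 10 libraries and carry no test.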

How the data were processed

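Stranded libraries of polyadenylated RNA were read from a single end, per the labels' protocols. Tools listed without roles in the submitters' processing notes are DESeq2 1.36.0, HTSeq 2.01, TopHat2 2.1.1 and cutadapt 2.10, with the build GRCm39. The strand used in counting is not given in the sources used here. Raw counts per gene and library stand in the deposited table beside a signal that the authors normalized with DESeq2, per the file headers. Of 55414 genes 6250 were blank and left out.

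The sides were compared, palatal over buccal, with the quasi-likelihood F-test of edgeR (edgeR 4.0.16, limma 3.58.1, DESeq2 1.42.0, R 4.3.3; filterByExpr with a minimum count of 10, TMM scaling, robust, two-sided), with Benjamini-Hochberg adjustment at 0.05 over 14062 genes; SE was taken as the absolute log2 fold change over the root of F. CPM used TMM-scaled library sizes. Ratios used counts plus 0.5 and an exact permutation test. Every pair of same-side libraries differed by more than sampling noise (chi-square per degree of freedom 5.41 or more).

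Exon lengths came from GENCODE M21 on GRCm38, whose annotation has genes overlapping exons of Elf3, Gata3, Grhl2 and Ovol1. For Ovol1 the opposite-strand Gm31166 covers 19.8% of exon bases, at 42 to 85 counts. For Grhl2, Gm16136 covers 1.96% but has 1563 to 2847 counts, so counts of these genes are less certain if strand was ignored. Whether the replicate numbers shared by the sides pair the libraries is not stated, and the main comparison was run without pairs. The 10 genes and the 14 lists were chosen with earlier results of these data known. Named genes were all 10 factors, up to 4 called genes of each list with the smallest p, and the 3 nearest profiles of the factors with the largest rise and fall, of which only some are printed.

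Other settings tried were scaling by RLE, the upper quartile or library totals, no count filter or at least 1 CPM in 5 libraries, DESeq2, limma-voom and limma-trend (on log2 of the deposited signal plus 1), replicate numbers as a block, each library left out, an adjusted p of 0.01, a tested fold of 1.5 and, for ratios, a pseudocount of 0.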

Additional observations from a re-analysis of the deposited data

Results flagged for a closer look

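Within each side, each factor and each of the 8 ratios was examined for a library far from the other 4 of its side, 36 groups in all, of which chance alone marks about 1 in 20. Grhl1 stood at 411 CPM in palatal library 5, apart from the other palatal libraries at 369 to 381 CPM. The log2 ratio of Grhl1 to Grhl2 was 2.59 in palatal library 2, the highest of its side.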

How the results depend on the processing

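The calls of Elf3 kept their direction and side of the threshold in all 21 alternatives and those of Gata3 in the 20 that could be run, since with at least 1 CPM in 5 libraries Gata3 was not tested; their log2 fold changes ranged from -1.19 to -0.85 and from -1.41 to -1.12. Klf4, Klf5, Grhl3 and Zfp750 kept theirs in 20 of 21; none of the 4 passed against a fold of 1.5, where 0 of the 10 factors were higher and 2 lower, and 675 genes were higher and 816 lower over the whole table, by the stricter construction of that test. Leaving out 1 library gave 2348 to 2613 genes higher and 2516 to 2817 lower, with 2 to 3 of the factors higher and 4 lower. The sign of Grhl2 turned with library-total scaling (-0.0134) and without palatal library 5, its range over left-out libraries being -0.0067 to 0.076, and that of the log2 ratio of Ovol1 to Trp63 without palatal library 2 or buccal library 3, in a range of -0.034 to 0.150; none of these passed in any alternative, and the cause was not tested.

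With the replicate number as a block, 2643 genes were higher and 2875 lower, with 2 factors higher and 4 lower, so the block changed no call among the factors. Same-numbered libraries had deviations correlated at -0.02 to 0.33, and palatal libraries correlated best with their own number in 2 of 5 cases. The numbers were not taken as pairs, but these correlations cannot show whether same-numbered libraries share an animal. For the ratios, the paired sign-flip test cannot go below 0.0625 with 5 pairs, and 0 of 8 passed under it. Leaving out 1 library gave 0 to 4 ratios past the threshold against 2; it was 0 without palatal library 1, 3, 4 or 5, where the adjusted p of both called ratios was 0.0635 in the exact permutation test. With 4 against 5 libraries a pair that alone reaches the smallest p cannot go below 0.0635 after adjustment over 8 pairs. Without palatal library 1, 3, 4 or 5, Klf4 over Klf5 had that smallest p, 0.00794, whereas Grhl1 over Grhl3 had 0.0159 (exact permutation). With any buccal library left out both had 0.00794, adjusted 0.0317 (exact permutation). Both ratios kept the sides apart in all 10 cases. Depth limits Gata3, at 7 to 36 counts per library.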
